A study of Mus musculus with 6 samples.

Results

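The genes examined here mark T cells and natural killer (NK) cells, the lymphocyte lineages that are not B cells. The 10 genes were Cd2, Cd3e, Cd247, Klrb1c, Klrd1, Klrk1, Ncr1, Gata3, Tbx21 and Bcl11b. Their open chromatin was profiled with ATAC-seq, where transposase inserts adapters into accessible DNA, in primary bone marrow B-cells of PEtg mice, a strain name that the labels do not expand. All samples came from PEtg mice, so no wild-type cells enter the comparison. Quiescent cells (H2B-GFP high, n = 3 samples) were compared with proliferating cells (H2B-GFP low, n = 3 samples), where the histone-bound fluorescent protein is diluted at each division. The labels give no age of the mice and do not say whether samples came from separate mice or were pooled, so the p-values cover only variation among the samples, part of which may be technical.

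A peak was taken as a member when it overlapped the body of a listed gene. A peak overlapping no protein-coding gene was a member when a listed gene was its nearest protein-coding gene within 100 kb. This gave 78 of 97124 peaks. Of these, 28 overlapped a gene body and 50 lay outside. Among those outside, 4 overlapped a non-coding gene. Assignment to a gene is by position alone, and no target was measured. The members were very unevenly spread: Cd2 had 31 peaks, Klrb1c 15, Cd247 14, Gata3 8, Tbx21 3, Cd3e, Klrk1 and Ncr1 2 each, Klrd1 1 and Bcl11b 0.

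T cells recognise antigen through a receptor that signals through the CD3 chains, whereas NK cells read a balance of activating and inhibitory surface receptors. Gata3 and Bcl11b are transcription factors that establish T-cell identity, and Tbx21 encodes T-bet, a factor of NK cells and of type 1 helper T cells. B-lineage commitment is accompanied by silencing of many genes of the alternative lineages. Some genes of the list are less restricted, and in the mouse Cd2 is also expressed by B cells.

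The labelled cell type was checked against B-lineage markers. All 12 B-lineage markers with a start site in the RefSeq promoter table had a peak over the promoter window, and the strongest such peak of each stood between percentiles 90.1 and 100 of all peaks by signal. Of the members, 8 were in that table and 2 (25%) had a peak over the promoter window, against 53.6% of 16456 protein-coding genes. These were Klrb1c and Gata3. The windows of Cd3e, Cd247, Klrk1, Ncr1, Tbx21 and Bcl11b held none, and Cd2 and Klrd1 were not in the table. Per sample, the deposited signal added up to 20904407 to 21518630. The reads in peaks behind it, estimated from the steps of the values, ran from 14021311 to 28188448 in quiescent and from 8052433 to 48841422 in proliferating samples, with proliferating sample 1 the shallowest.

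Promoter windows from RefSeq (GRCm38.p6, the assembly behind mm10) are shown for both members with a peak over the window, Klrb1c and Gata3, and for 3 without one, Cd3e, Ncr1 and Bcl11b. Each runs 5′ to 3′ on the gene's strand, from 250 bases before to 50 bases after the annotated start. Capitals mark matches, on either strand, to the motif AGATAA of GATA factors, its other form TGATAA, the RUNX motif TGTGGT, the ETS motif GGAAGT, the E-box CAGCTG, the further E-box CACCTG and the T-box motif AGGTGTGA. The Klrb1c window lies at chr6:128788592-128788891 (minus strand), Gata3 at chr2:9878551-9878850 (minus strand) and Cd3e at chr9:45009562-45009861 (minus strand). The Ncr1 window, the first of 2 that overlap, lies at chr7:4337465-4337764 (plus strand) and Bcl11b at chr12:108003365-108003664 (minus strand).
Klrb1c: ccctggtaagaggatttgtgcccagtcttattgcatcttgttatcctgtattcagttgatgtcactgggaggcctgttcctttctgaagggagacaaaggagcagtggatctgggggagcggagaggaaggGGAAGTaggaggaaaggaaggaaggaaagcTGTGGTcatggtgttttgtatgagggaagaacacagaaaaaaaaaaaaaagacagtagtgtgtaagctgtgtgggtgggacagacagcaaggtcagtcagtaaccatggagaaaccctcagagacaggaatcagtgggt
Gata3: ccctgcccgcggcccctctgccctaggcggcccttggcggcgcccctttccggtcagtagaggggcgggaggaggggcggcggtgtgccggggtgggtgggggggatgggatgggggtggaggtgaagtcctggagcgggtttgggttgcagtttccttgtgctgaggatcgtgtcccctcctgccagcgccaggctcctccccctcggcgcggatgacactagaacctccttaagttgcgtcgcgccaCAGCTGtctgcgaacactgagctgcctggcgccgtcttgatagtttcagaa
Cd3e: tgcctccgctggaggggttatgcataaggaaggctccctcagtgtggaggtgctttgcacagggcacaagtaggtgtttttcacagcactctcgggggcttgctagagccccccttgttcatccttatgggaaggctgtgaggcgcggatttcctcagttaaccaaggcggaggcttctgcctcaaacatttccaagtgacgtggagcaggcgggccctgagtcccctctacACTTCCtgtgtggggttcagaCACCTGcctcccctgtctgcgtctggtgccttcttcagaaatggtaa
Ncr1: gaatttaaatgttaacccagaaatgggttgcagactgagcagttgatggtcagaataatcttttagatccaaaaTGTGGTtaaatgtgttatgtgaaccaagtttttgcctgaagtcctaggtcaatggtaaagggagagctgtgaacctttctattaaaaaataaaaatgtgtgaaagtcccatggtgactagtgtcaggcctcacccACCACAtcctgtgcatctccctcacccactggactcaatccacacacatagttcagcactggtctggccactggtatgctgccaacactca
Bcl11b: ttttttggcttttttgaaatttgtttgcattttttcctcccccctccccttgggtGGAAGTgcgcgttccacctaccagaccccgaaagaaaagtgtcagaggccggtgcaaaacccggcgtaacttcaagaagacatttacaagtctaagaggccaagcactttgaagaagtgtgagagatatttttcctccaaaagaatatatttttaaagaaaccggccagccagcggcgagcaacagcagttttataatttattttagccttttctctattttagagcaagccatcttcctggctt

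The RUNX letters stood in 4 of the 9 member windows (Klrb1c, Klrk1 and both windows of Ncr1), and in 16.8% of all 32851 windows. The ETS letters stood in 5 (Cd247, Klrb1c, Cd3e, Tbx21 and Bcl11b), against 23.8% of all windows. CAGCTG stood in 2 (16.3% of all) and CACCTG in 3 (20.2% of all). Neither GATA form (11.2% and 9.05% of all) nor the T-box letters (1.28% of all) stood in any of the 9. Among the windows under a peak, Klrb1c thus held a RUNX and an ETS match and Gata3 an E-box match. A match is a run of letters and not a measured binding site.

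Peak and gene coordinates are those of mm10. Values below are the deposited signal, scaled by the authors, and samples are given in the order 1, 2 and 3. Fold changes are quiescent minus proliferating on the log2(value + 1) scale, ± SE, and understate the change of weak peaks. Tests are limma fits over 87411 peaks above the lowest 10% by mean signal, with Benjamini-Hochberg adjustment over all of them and a threshold of 0.05. Of the 78 member peaks, 74 were tested, and the other 4, in or near Cd2 and Cd247, were too weak. Accessibility at single elements changed in both directions, while the members as a whole did not stand out: 5 of 74 passed (6.76%), 4 higher and 1 lower in quiescent cells, against 6.72% of all tested peaks (4.01% higher and 2.72% lower). With the replicate number as a block, 13 of 74 passed (6 higher and 7 lower), against 18.3% of all. The median member fold change was -0.001, with 37 peaks above 0 and 37 below, and the median over all tested peaks was -0.009. The groups did not overlap at 21 member peaks (28.4%), against 30.4% of all. The changed elements lay in Cd247, near Klrb1c, near Ncr1 and, with opposite directions, on either side of Cd2.

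**Figure D1:**
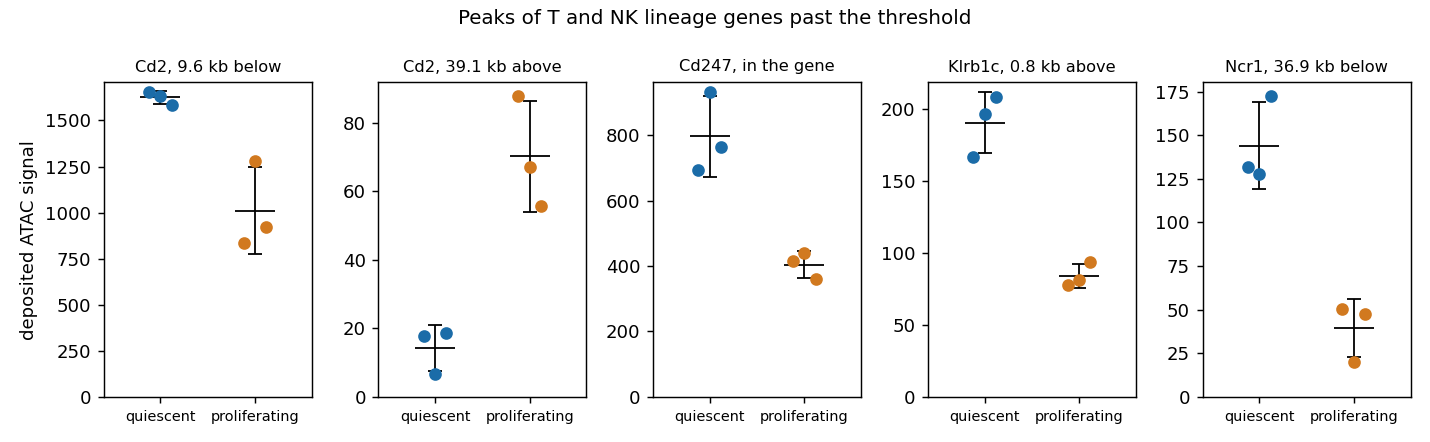
Deposited ATAC signal (vertical axes, each from 0) of the 5 member peaks past the threshold, with quiescent samples in blue and proliferating samples in orange. Points are samples 1 to 3 from left to right, and bars are mean ± SD (n = 3). In each panel the groups do not overlap, and the peak 39.1 kb above Cd2 is the one that is lower in quiescent cells.

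**Figure D2:**
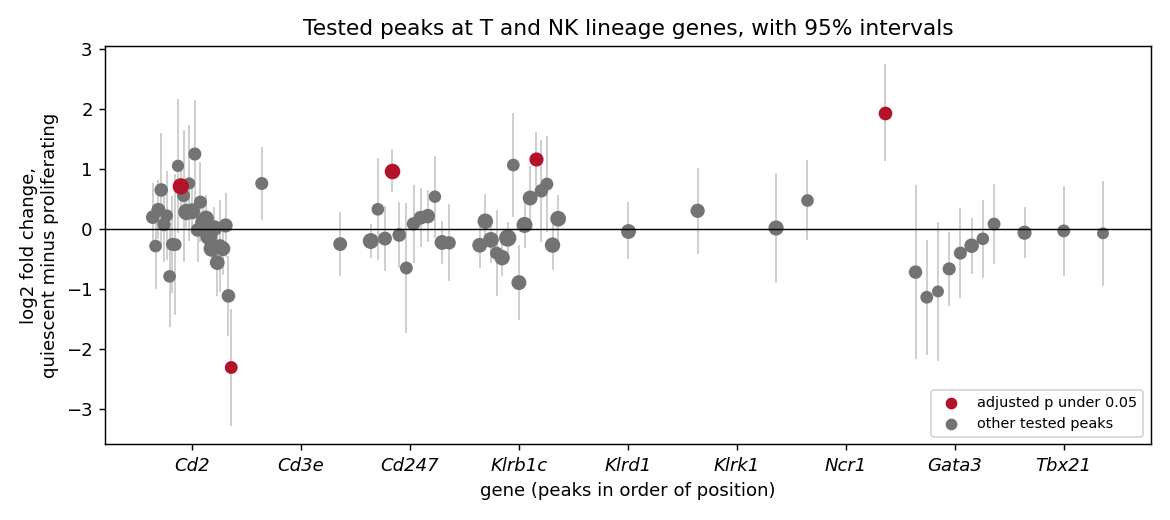
Log2 fold change (vertical axis) of the 74 tested member peaks, by gene and in order of position, with 95% intervals as grey lines and larger points for stronger peaks. Red points passed the threshold. Values spread from -2.31 to 1.25 around Cd2, and the Gata3 peaks lie mostly below 0.

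Among the components of the T-cell receptor complex, Cd247 changed at 1 element and Cd3e at none. Cd247, which encodes the CD3 zeta signalling chain of the T-cell receptor and of NK receptors, spans chr1:165779952-165871153, and all of its 14 peaks lay in the gene body. The peak at chr1:165810699-165812025 had 692, 933 and 763 in quiescent samples, against 415, 439 and 360 in proliferating samples. The groups were far apart relative to their spread, and the peak rose to 796 ± 124 in quiescent cells, against 404 ± 40.5 in proliferating cells (SD, n = 3 each). The log2 fold change was 0.97 ± 0.16 (limma adjusted p = 0.0139). The call was lost, with the fold change between 0.85 and 1.03, without quiescent sample 2 (adjusted p = 0.0725), quiescent sample 3 (0.07), proliferating sample 2 (0.0505) or proliferating sample 3 (0.0604).

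The strongest Cd247 peak, over the lower-coordinate end of the gene (chr1:165779845-165782056), moved the other way without passing. It had 778, 842 and 745 in quiescent samples, against 846, 937 and 938 in proliferating samples. These groups did not overlap, yet the fold change of -0.20 ± 0.12 did not pass (adjusted p = 0.355, 95% interval -0.48 to 0.08), and on recovered reads with median-of-ratios scaling it was 0.096. This peak lies away from the promoter window of the RefSeq table, which is at chr1:165788431-165788730. The 12 tested Cd247 peaks had a median fold change of -0.01, 6 above 0 and 6 below.

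Cd3e encodes the epsilon chain of CD3 (chr9:44998735-45009663). No peak overlapped its body, and both of its peaks lay on the higher-coordinate side. The nearer, at chr9:45014887-45015239, had 61.2, 66.3 and 54.5 in quiescent samples, against 42.8, 33.0 and 31.3 in proliferating samples. The groups did not overlap, but the log2 fold change of 0.76 ± 0.27 did not pass (adjusted p = 0.126) and was 0.42 on reads scaled to totals. The stronger, at chr9:45022808-45023311, had 83.6, 104.6 and 100.4 in quiescent samples, against 128, 131 and 89.1 in proliferating samples (-0.25 ± 0.23, adjusted p = 0.555), and its groups overlapped. Both are ordinary peaks by height, at percentiles 39.1 and 61.6 of all peaks by signal.

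Cd2 encodes an adhesion molecule of T cells, NK cells and, in the mouse, B cells (chr3:101275908-101287939). It had 31 peaks, 4 of them in its body. The strongest, chr3:101290016-101294054, had 3123, 3088 and 3022 in quiescent samples, against 3616, 3138 and 3336 in proliferating samples. It stands at percentile 99.6 of all peaks by signal. Its groups did not overlap, but the fold change of -0.13 ± 0.09 did not pass (adjusted p = 0.447), and on recovered reads it was 0.095 or 0.35, depending on scaling. The strongest peak at an end of the gene, chr3:101287530-101288728, had 1366, 1209 and 1346 in quiescent samples, against 1241, 1157 and 1244 in proliferating samples (0.10 ± 0.11, adjusted p = 0.617). The groups overlapped, but on recovered reads the fold change was 0.22 when scaled to totals and passed at 0.47 with median-of-ratios scaling (limma-voom adjusted p = 0.0368).

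A strong peak on the lower-coordinate side of Cd2 rose in quiescent cells. This peak, 9604 bp from the gene at chr3:101264849-101266304, had 1657, 1634 and 1583 in quiescent samples, against 832, 1277 and 921 in proliferating samples. Every quiescent sample lay above every proliferating sample, and the fold change was 0.71 ± 0.16 (limma adjusted p = 0.0355). It rested on 1108 to 2319 reads in quiescent and 305 to 2022 in proliferating samples. The call was lost without quiescent sample 1 (adjusted p = 0.0575), quiescent sample 2 (0.123), quiescent sample 3 (0.119) or proliferating sample 3 (0.121), with the fold change between 0.66 and 0.73.

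A weak peak on the higher-coordinate side fell. This peak, 39116 bp from Cd2 at chr3:101327055-101327441, had 17.9, 6.64 and 18.6 in quiescent samples, against 87.8, 67.3 and 55.7 in proliferating samples. The groups were well separated (-2.31 ± 0.43, limma adjusted p = 0.0199), on few reads: 19, 4 and 15 in quiescent samples, against 35, 116 and 157 in proliferating samples. The call was lost without quiescent sample 2 (adjusted p = 0.0608), quiescent sample 3 (0.0653), proliferating sample 2 (0.0794) or proliferating sample 3 (0.0652), with the fold change between -2.54 and -1.87. With the replicate number as a block, 4 further Cd2 peaks passed. These were 1 at the lower-coordinate end of the gene (1.25 ± 0.33, adjusted p = 0.0248) and 3 above it, at 7007 bp (-0.33 ± 0.10, adjusted p = 0.0442), 15050 bp (-0.56 ± 0.17, adjusted p = 0.0386) and 30211 bp (-1.12 ± 0.27, adjusted p = 0.0155).

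**Figure D3:**
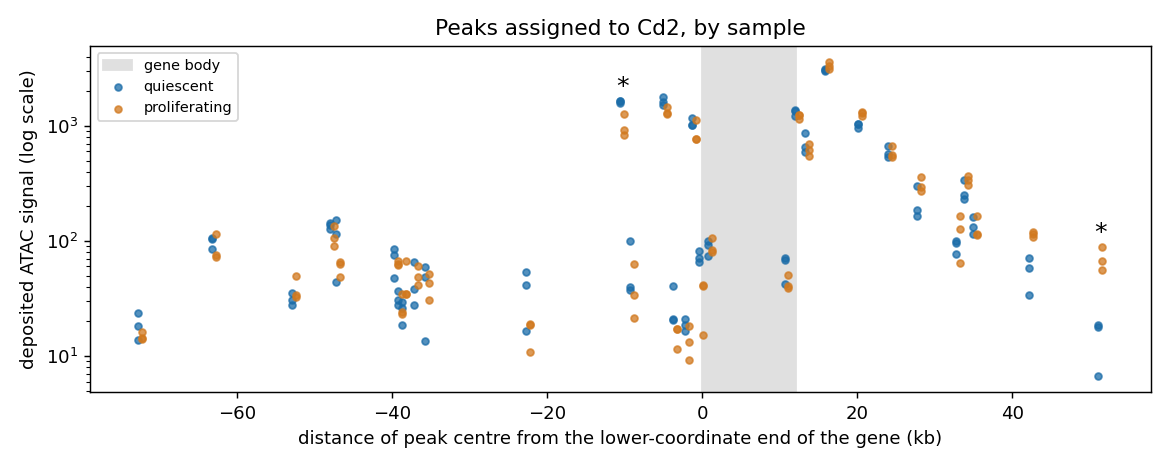
Deposited ATAC signal (log scale) of the 31 peaks assigned to Cd2 in each sample, against the distance of the peak centre from the lower-coordinate end of the gene (kb), with quiescent samples in blue left of proliferating samples in orange. The grey band is the gene body and asterisks mark the peaks past the threshold, of which the one below the gene is higher and the one above it lower in quiescent cells.

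Among the NK receptor genes, changes were found at Klrb1c and Ncr1. The Klr genes lie on chromosome 6 among related genes of the same family, some of them closely similar. The sources used here do not say how reads mapping to several copies were treated, so values at these genes are uncertain to that extent. Klrb1c encodes the receptor known as NK1.1 (chr6:128778485-128788641). The peak 800 bp above it, at chr6:128789441-128790139, just upstream of the promoter window printed above, had 167, 196 and 208 in quiescent samples, against 77.6, 81.2 and 93.6 in proliferating samples. The lowest quiescent sample lay well above the highest proliferating sample (1.17 ± 0.20, limma adjusted p = 0.0153). Reads behind it were 127 to 196 in quiescent and 29 to 242 in proliferating samples. The call was lost without quiescent sample 2 (adjusted p = 0.075), quiescent sample 3 (0.0811), proliferating sample 2 (0.0693) or proliferating sample 3 (0.0523), with the fold change between 1.10 and 1.25.

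The neighbouring peak over the Klrb1c promoter window (chr6:128787753-128789428) had 449, 236 and 329 in quiescent samples, against 253, 203 and 232 in proliferating samples. Quiescent sample 2 lay within the range of the proliferating samples, and the fold change of 0.52 ± 0.24 did not pass (adjusted p = 0.225). It was 0.29 without quiescent sample 1, and passed at 0.67 on median-of-ratios reads with the replicate block (adjusted p = 0.00729). The strongest member peak of all lay 6166 bp below Klrb1c (chr6:128769485-128772319), at percentile 99.9 of all peaks by signal. It had 4845, 4269 and 3621 in quiescent samples, against 4865, 4927 and 4282 in proliferating samples. The groups overlapped (-0.15 ± 0.12, adjusted p = 0.482), and on recovered reads the fold change was 0.12 or 0.35, depending on scaling. With the replicate block, 3 further Klrb1c peaks passed: 1 in the gene body (-0.90 ± 0.18, adjusted p = 0.00699) and 2 below it, at 10920 bp (-0.48 ± 0.13, adjusted p = 0.0235) and 5779 bp (1.06 ± 0.32, adjusted p = 0.041).

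**Figure D4:**
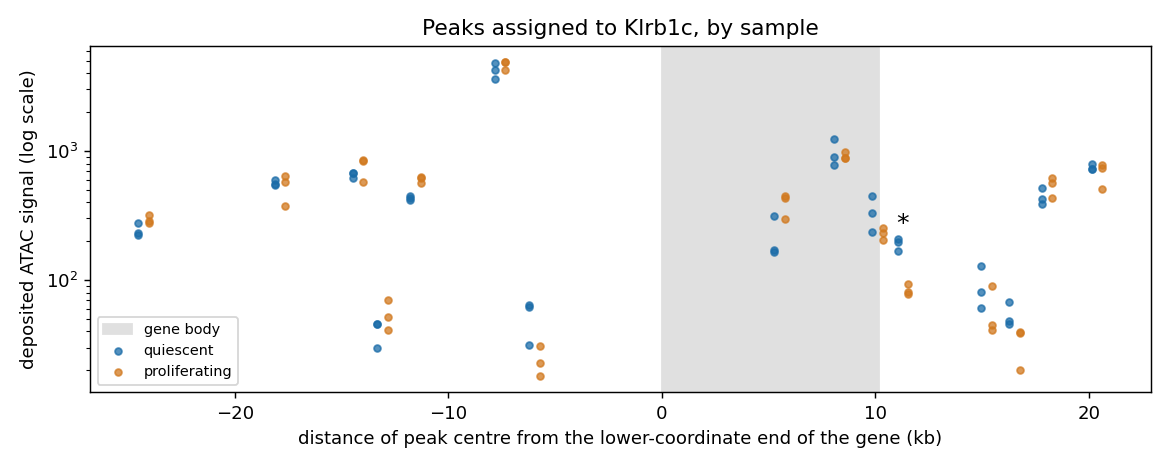
Deposited ATAC signal (log scale) of the 15 peaks assigned to Klrb1c in each sample, against the distance of the peak centre from the lower-coordinate end of the gene (kb), with quiescent samples in blue left of proliferating samples in orange. The grey band is the gene body and the asterisk marks the peak 800 bp above it, which is higher in quiescent cells, while the tallest peak, below the gene, overlaps between groups.

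Klrd1 encodes CD94, the partner of NKG2 receptors (chr6:129588092-129598775). Its 1 peak, in the gene body at chr6:129591357-129592081, had 303, 268 and 252 in quiescent samples, against 374, 249 and 235 in proliferating samples. The quiescent values lay inside the range of the proliferating ones (-0.03 ± 0.21, adjusted p = 0.944, 95% interval -0.51 to 0.44).

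Klrk1 encodes the activating receptor NKG2D (chr6:129610323-129623903), and both of its peaks lay below the gene. The stronger, 1122 bp away at chr6:129607850-129609201, had 614, 288 and 252 in quiescent samples, against 618, 281 and 248 in proliferating samples. Samples with the same number were nearly alike, and both samples numbered 1 stood more than 2-fold above the other 4, and the groups overlapped (0.01 ± 0.40, adjusted p = 0.987, 95% interval -0.90 to 0.93). The weaker, at chr6:129606624-129607339, had 255, 150 and 109 in quiescent samples, against 166, 117 and 114 in proliferating samples (0.30 ± 0.32, adjusted p = 0.607). Both samples numbered 1 stood above the other 4 at both Klrk1 peaks, at the Klrd1 peak and at 8 of 29 Cd2 peaks. The same held at 1 of 12 Cd247 peaks, at 1 of 15 Klrb1c peaks and at 12.6% of all tested peaks. It held at no tested peak of Cd3e, Ncr1, Gata3 or Tbx21. The labels do not say what the number stands for.

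Ncr1 encodes NKp46, an activating receptor used to identify NK cells (chr7:4337715-4345184). No peak overlapped the gene, and both of its peaks lay far below it. The peak 36873 bp away at chr7:4300088-4300842 had 132, 128 and 173 in quiescent samples, against 50.5, 20.1 and 47.7 in proliferating samples. It averaged 144 ± 24.9 in quiescent cells and 39.4 ± 16.8 in proliferating cells (SD, n = 3 each), which made it the largest rise among the member peaks that passed (1.94 ± 0.36, limma adjusted p = 0.0193). The call was lost without quiescent sample 2 (adjusted p = 0.0763) or quiescent sample 3 (0.0944). The reads behind it were 148, 81 and 142 in quiescent samples, against 19, 34 and 128 in proliferating samples. The second peak, at chr7:4297204-4297584, was weaker, with 45.1, 44.5 and 35.0 in quiescent samples, against 33.3, 25.1 and 29.8 in proliferating samples (0.48 ± 0.30, adjusted p = 0.359).

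Of the transcription factor genes, none had a peak past the threshold. Gata3 (chr2:9857078-9887953) had 8 peaks, of which 7 had a fold change below 0, 5 of 5 in the gene body among them. The largest difference was at chr2:9867506-9867821, with 19.9, 46.8 and 14.9 in quiescent samples, against 59.6, 59.8 and 45.0 in proliferating samples. Quiescent sample 2 reached into the range of the proliferating samples, and the fold change of -1.14 ± 0.43 did not pass (adjusted p = 0.142), but passed with the replicate block (adjusted p = 0.0423) and on recovered reads with either scaling (adjusted p = 0.0226 and 0.0463). The strongest Gata3 peak, chr2:9879080-9880108, had 139, 203 and 209 in quiescent samples, against 207, 221 and 231 in proliferating samples (-0.28 ± 0.21, adjusted p = 0.45), and its fold change was -0.09 without quiescent sample 1. The peak over the promoter window, chr2:9878076-9878757, had 44.5, 34.2 and 49.3 in quiescent samples, against 36, 71.4 and 68.3 in proliferating samples. Its groups overlapped (-0.40 ± 0.34, adjusted p = 0.507), and the fold change ran from -0.72 without proliferating sample 1 to -0.23 without proliferating sample 2.

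Tbx21 (chr11:97098007-97115331) had 3 weak to moderate peaks with fold changes from -0.07 to -0.03. The strongest, 13841 bp below the gene at chr11:97082883-97084166, had 139, 128 and 143 in quiescent samples, against 134, 136 and 160 in proliferating samples (-0.06 ± 0.19, adjusted p = 0.87, 95% interval -0.49 to 0.36). The peak in the gene body, chr11:97101823-97102067, had 17.0, 16.9 and 23.6 in quiescent samples, against 17.2, 18.9 and 24.4 in proliferating samples (-0.07 ± 0.39, adjusted p = 0.931), and the groups overlapped at both. Bcl11b (chr12:107910403-108004145), a gene of 93743 bp, had no peak in its body and none assigned within 100 kb. A gene without a listed peak gives no signal value here, so no level can be stated for it.

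Signal summed over all peaks of a gene gave 1 value per gene, tested with limma over 14247 protein-coding genes. Of 9 member genes, 1 passed, against 7.62% of all genes tested. The Ncr1 sum was 177, 172 and 208 in quiescent samples, against 83.8, 45.3 and 77.5 in proliferating samples. Its fold change was 1.46 ± 0.25 (adjusted p = 0.016), and the call was lost without quiescent sample 2 (adjusted p = 0.0738), quiescent sample 3 (0.0811), proliferating sample 2 (0.0516) or proliferating sample 3 (0.0561). The Gata3 sum was 334, 489 and 516 in quiescent samples, against 515, 651 and 620.2 in proliferating samples. Within each of the 3 numbers the quiescent sample was lower, and the sum passed with the replicate block (-0.43 ± 0.12, adjusted p = 0.0291), while it did not pass without it (-0.43 ± 0.18, adjusted p = 0.185). Without quiescent sample 1 the Gata3 sum was -0.24 (adjusted p = 0.357), and on reads scaled to totals it passed at -0.82 (adjusted p = 0.0253). With the block, 21.5% of all gene sums passed. On reads scaled to totals, 764 of all gene sums passed as higher and 2249 as lower, with a median fold change of -0.19.

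The sums of the other 7 genes did not pass, though some did under another scaling or without samples. The Cd2 sum was 13255, 12158 and 12912 in quiescent samples, against 13070.4, 11857 and 11580.3 in proliferating samples (0.07 ± 0.07, 95% interval -0.10 to 0.24). On recovered reads with median-of-ratios scaling the Cd2 sum passed at 0.39 (limma-voom adjusted p = 0.0376), above that interval. With that scaling 2280 of all 14247 gene sums passed as higher and 676 as lower. The Klrb1c sum was 10557, 9055 and 8273 in quiescent samples, against 9452, 10303 and 9884 in proliferating samples (95% interval of the fold change -0.31 to 0.13). On median-of-ratios reads the Klrb1c sum was 0.25 (adjusted p = 0.2), and without both samples numbered 1 it passed as lower (-0.22, adjusted p = 0.0165). The Cd247 sum was 2521, 2776 and 2612 in quiescent samples, against 2287, 2499 and 2309.7 in proliferating samples (0.16 ± 0.09, adjusted p = 0.316). Those Cd247 groups did not overlap, and the interval ran from -0.05 to 0.36. On median-of-ratios reads the Cd247 sum passed at 0.33 (adjusted p = 0.0353), while on reads scaled to totals it was 0.07. The intervals of Cd3e, Klrd1, Klrk1 and Tbx21 were wider, from -0.75 to 0.93 at Klrk1. Per kb of peak, the mean signal was highest at Klrb1c (479) and Cd2 (424) and lowest at Tbx21 (102), Ncr1 (112) and Gata3 (113).

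**Figure D5:**
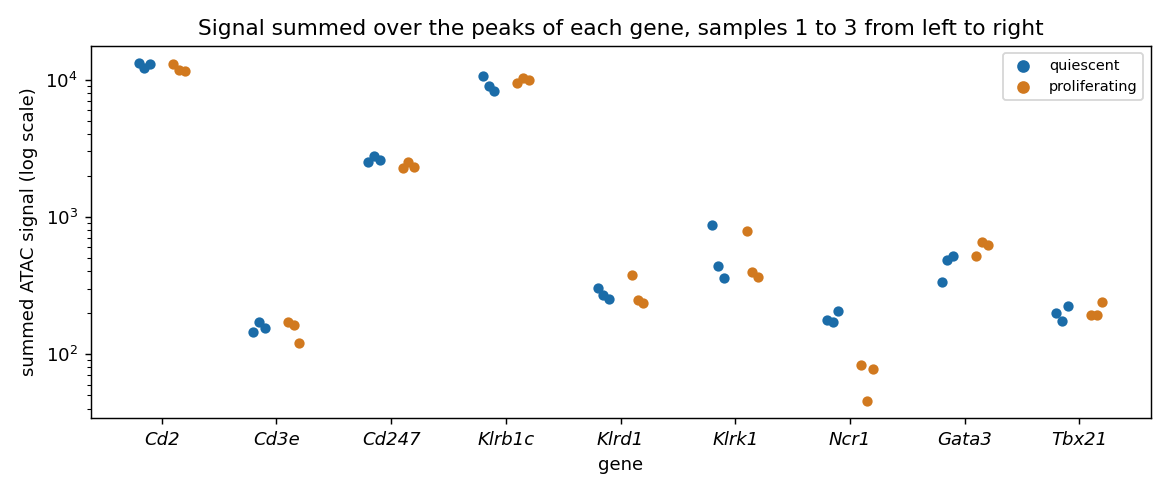
Deposited ATAC signal summed over the peaks of each of the 9 member genes with a peak (log scale), with quiescent samples in blue left of proliferating samples in orange and samples 1 to 3 from left to right. The Ncr1 sums of the quiescent samples, 172 to 208, lie above those of the proliferating samples, 45.3 to 83.8, and at Klrk1 sample 1 of each group stands above the others.

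Other genes of the T and NK lineages, 34 and 31 genes, were set beside the members. Of these, 6 T-cell and 3 NK-cell genes had no peak, among them Cd3g, Cd8b1, Ptcra, Gzma and Klrc2, and 2 of them lie on chromosome X, which was not analysed here. The share with a peak over a promoter window was 60% of 20 T-cell genes and 42.3% of 26 NK-cell genes. It was 53.6% of all protein-coding genes in the promoter table. Of 278 tested T-cell gene peaks, 13 were higher and 12 lower in quiescent cells (8.99% in all, against 6.72% of all tested peaks), with a median fold change of 0.05. With the block these counts were 30 and 32, against 8885 higher and 7114 lower of all 87411 tested peaks (18.3% in all). Of 158 tested NK-cell gene peaks, 14 were higher and 1 lower (9.49% in all), against 4.01% higher and 2.72% lower over all tested peaks. Their median was 0.26, against -0.009 over all tested peaks. The medians of the marker lists were 0.203 (B lineage), 0.218 (myeloid) and 0.011 (erythroid and megakaryocyte). Without quiescent sample 2 or 3 or proliferating sample 2 or 3, the number of T-cell gene peaks called was at most 1 in each direction.

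Summed over genes, 6 of 49 tested T and NK gene sums passed, all higher in quiescent cells, against 7.62% of all gene sums in either direction, and the 5 largest are named. With the block, sums in both directions passed: 7 T-cell genes were higher and 4 lower, and 9 NK-cell genes were higher and 1 lower, against 21.5% of all. Without quiescent sample 2 or 3, the sum of 1 T-cell gene passed and that of no NK-cell gene. In the fit with all 6 samples and no block, the 5 largest included Ccl5, which encodes a chemokine of NK and T cells (1.56 ± 0.23, limma adjusted p = 0.01). They also included Fcer1g, an adaptor of NK and myeloid receptors (1.34 ± 0.19, adjusted p = 0.00948), and Icos, a costimulatory receptor of T cells (1.20 ± 0.10, adjusted p = 0.00309). The others were Klri2, an NK receptor gene (0.92 ± 0.18, adjusted p = 0.0238), and Xcl1, a chemokine gene of NK and T cells (0.55 ± 0.14, adjusted p = 0.0496). The Icos sum was 2060, 1864 and 1824 in quiescent samples, against 854, 836 and 804 in proliferating samples, groups that stand far apart. With the block, 35 NK-cell gene peaks were higher and 3 lower, against 18.3% of all tested peaks called. Without proliferating sample 2 the counts were 2 higher and 0 lower, against 556 and 234 of all 87411 tested peaks. Without proliferating sample 3 they were 5 and 1, against 753 and 407 of all. In limma without quiescent sample 2 or 3, 0 NK-cell gene peaks were higher, against 79 and 0 of all. There 37 and 37 of the 158 peaks had an unadjusted p under 0.05, against 16739 and 16512 of all. On recovered reads limma-voom called 17 higher and 4 lower with scaling to totals, against 4379 and 8626 of all. With median-of-ratios scaling it called 34 higher and 1 lower, against 8723 and 3485 of all.

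Some markers of other cell types also differed between the groups. In sorted bulk cells, a larger share of cells of a type and more open chromatin per cell cannot be told apart. The summed signal of the NK-cell list was 50167 to 53066 in quiescent samples, against 44641 to 45544 in proliferating samples. That of the T-cell list was 78601 to 87515 in quiescent samples, against 80948 to 85167 in proliferating samples. Summed over all 78 member peaks it was 25512 to 28361 in quiescent samples, against 25428 to 26929 in proliferating samples. Myeloid markers summed to 13720 to 15916 in quiescent samples, against 11833 to 14536 in proliferating samples, and the quiescent sample was the higher within each of the 3 numbers. Of 54 tested myeloid peaks, 6 were higher and 3 lower (16.7%, against 6.72% of all tested peaks), with no peak at Mpo or Elane. The sums of Csf1r (0.97 ± 0.15, limma adjusted p = 0.012) and Ltf (0.81 ± 0.16, adjusted p = 0.0251) passed as higher. All 3 lower peaks were assigned to Csf3r, whose sum lay below 0 (-0.535 ± 0.151, adjusted p = 0.0675). Of the other tested sums, those of Cebpe and S100a9 lay below 0 and those of Lyz2, Itgam, Ly6g and Fcgr3 above. None of these passed. Without quiescent sample 2 or 3, 0 myeloid peaks passed in limma. There 17 and 16 of the 54 had an unadjusted limma p under 0.05, against 16739 and 16512 of all 87411 tested peaks. Erythroid and megakaryocyte markers summed to 4107 to 4738 in quiescent samples, against 4134 to 5093 in proliferating samples, and the quiescent sample was the lower within each of the 3 numbers. Of 38 tested peaks, 2 were lower and 0 higher in limma (5.26%, against 6.72% of all tested peaks), with no peak at Hba-a1, Hbb-bs or Epor. In limma 10 of these 38 had an unadjusted p under 0.05 in either direction, against 21185 of all 87411 tested peaks. On recovered reads scaled to totals, limma-voom called 0 higher and 5 lower, against 4379 and 8626 of all. With median-of-ratios scaling it called 2 higher and 2 lower, against 8723 and 3485 of all. B-lineage markers summed to 84414 to 90158 in quiescent samples, against 80872 to 90327 in proliferating samples. Limma called 7 of 255 B-lineage peaks as higher and 4 as lower (4.31%, against 6.72% of all tested peaks). The part of other cells in the differences at the T and NK genes was not tested.

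The mean profile of the 9 member genes over the samples was nearly flat. The mean deviation of their log2 sums from the average over samples was 0.13, 0.036 and 0.043 in quiescent samples, against 0.08, -0.15 and -0.13 in proliferating samples. The protein-coding genes with the most similar profile were Gprin3, 4930519L02Rik, Arnt2, Chmp4b and Slc24a3, with Pearson r from 0.994 to 0.995 over 6 samples. These values share their libraries and are given as a description. The fold changes of the member gene sums ran from -0.43 at Gata3 to 1.46 at Ncr1, so the mean profile does not describe each gene.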

How the data were processed

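ATAC-seq of 6 samples of PEtg bone marrow B-cells, 3 quiescent and 3 proliferating, was used. Per the submitters' processing notes, Bowtie2, SAMtools and MACS2 were used with mm10, and, per the labels' protocols, each library was sequenced in a pair of runs. Neither versions nor settings, read counting or any shift for the transposase cut are stated in those sources. The authors deposited 1 scaled signal value per sample for each peak of a shared list, and the scaling changed smoothly with peak strength.

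As the unit is signal and not a count, limma 3.58.1 (R 4.3.3) with an intensity trend was run on log2(value + 1) over all peaks above the lowest 10% and, for sums per gene, over all protein-coding genes above the lowest 10%. It was checked on simulated data with 200 changed peaks. Reads were recovered from the steps of the values in Python 3.11.15 (numpy 2.4.6, pandas 2.3.3, scipy 1.17.1). Between 99.6% and 100.0% of values of 1 to 1000 reads came within 0.1 of a whole number. They served for depth and for limma-voom alternatives only.

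Genes and promoters came from RefSeq tables of GRCm38.p6, in which 112 of 112 list genes matched by symbol. The gene table has no strand, so sides of a gene are given by coordinate. Named peaks were, per gene, the strongest, the strongest at the promoter window or gene end, those past the threshold and the one with the largest fold change. Other peaks, such as those past the threshold only with the block, were picked with their values in view. The 10 genes and all lists were chosen with earlier results of these data known. Samples with the same number deviated together, with correlations of 0.43, 0.285 and 0.21 for numbers 1, 2 and 3 over tested peaks. Across numbers, quiescent 2 with proliferating 3 gave 0.22 and quiescent 3 with proliferating 2 gave 0.146, so numbers 2 and 3 were hardly told apart, while the pairs of number 1 with another number ran from -0.361 to -0.212. As all 3 same-number values exceeded 0.1, blocked values are given for member and T and NK gene results where they change a call or count. Plots used matplotlib 3.10.9.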

Additional observations from a re-analysis of the deposited data

How the results depend on the processing

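The count of 5 member peaks past the threshold depended on single libraries, with 0 to 7 when 1 sample was left out. It was 0 without quiescent sample 2 or 3, where limma gave 14 member peaks an unadjusted p under 0.05 each time, 2 without proliferating sample 2 and 1 without proliferating sample 3. Among all 87411 tested peaks limma then called 161, 0, 790 and 1160. Without quiescent sample 2 or 3, 16739 and 16512 of all tested peaks had an unadjusted limma p under 0.05, beside 14 of 74 member peaks. It was 13 with the replicate block (17.6% of members, 18.3% of all peaks), 11 on recovered reads scaled to totals (14.9% of members and of all peaks) and 10 with median-of-ratios scaling. It was 3 without the intensity trend, 3 with genes within 10 kb and 1 with gene bodies only. Of the alternatives chosen after seeing the data, leaving out both samples numbered 1 gave 13 (17.6% of members, 20.8% of all peaks). The other, median-of-ratios reads with the block, gave 16 (21.6% and 25.6%). All 5 peaks passed in each of these settings that kept every sample and every peak, except that the peaks of Cd247 and the one below Cd2 did not pass without the trend. The count of gene sums, 1 of 9, was 0 to 1 when 1 sample was left out. It was 2 with the replicate block, 2 on reads scaled to totals and 3 with median-of-ratios scaling. Of all gene sums, 21.5%, 21.1% and 20.7% passed in these 3 settings. The count of member gene sums was 0 with genes within 10 kb, with gene bodies only or with the lowest 25% left out. It was 3 without both samples numbered 1 (30.6% of all gene sums) and 4 on median-of-ratios reads with the block (35.1% of all). Scaling to totals moved the median of all peaks to -0.26, and median-of-ratios scaling to 0.014.

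Only fold changes that had not passed turned their sign, among the named peaks and sums. With median-of-ratios scaling and the block the strongest peaks of Cd2 and Klrb1c passed as higher. On reads scaled to totals, with median-of-ratios scaling and with that scaling and the block, they became 0.095, 0.345 and 0.302 at the strongest Cd2 peak, 0.117, 0.355 and 0.294 at the strongest Klrb1c peak and 0.006, 0.247 and 0.231 for the Klrb1c sum. With median-of-ratios scaling, without and with the block, they became 0.096 and 0.086 at the strongest Cd247 peak, 0.249 and 0.147 at the Klrd1 peak and 0.269 and 0.150 for the Klrd1 sum. The Cd3e sum became -0.208 on reads scaled to totals. With quantile normalization the Klrk1 peak nearer the gene became -0.012, the Klrd1 sum 0.044 and the Tbx21 sum 0.039. Without both samples numbered 1 the Klrd1 peak and sum became 0.102. When 1 sample was left out, fold changes ran from -0.158 to 0.175 at the Klrd1 peak, from -0.029 to 0.581 at the farther Klrk1 peak, from -0.381 to 0.423 at the nearer, from -0.110 to 0.016 at the strongest Tbx21 peak, from -0.226 to 0.066 at the one in its body, from -0.097 to 0.154 for the Cd3e sum, from -0.158 to 0.175 for the Klrd1 sum, from -0.283 to 0.441 for the Klrk1 sum and from -0.142 to 0.051 for the Tbx21 sum. The causes were not tested.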

Other observations

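Around Cd2 the direction of the fold changes differed by side, a pattern seen only after the values were known and not tested. Of 15 tested peaks on the lower-coordinate side, 11 lay above 0 (median 0.28), and of 10 on the higher-coordinate side, 7 lay below 0 (median -0.31). These counts include the peak past the threshold on each side, and they hold for the deposited scaling. On recovered reads the strongest peak on the higher-coordinate side became 0.095 or 0.345, depending on scaling. Around Klrb1c, 5 of 7 peaks below the gene lay below 0 and 4 of 5 above it lay above 0 (medians -0.18 and 0.64).

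At the peaks of Klrk1, the samples numbered 1 exceeded the other 4 by a median of 0.98 on the log2 scale, and such an excess of 1 or more was found at 5.1% of all tested peaks.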
